A study of Mus musculus with 10 samples.

Results

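The EGF receptor family and its ligands were followed by the RNA of 10 genes, chosen by symbol: the receptors Egfr, Erbb2 and Erbb3, and the ligands Areg, Ereg, Btc, Hbegf, Tgfa, Epgn and Nrg1. Each was found once among the 55359 genes of the deposited table through its mouse Ensembl identifier. Bulk RNA sequencing was done on 10 orthotopic pancreatic tumors in C57BL/6 mice, 5 from mice on regular water (CTRL, normoglycemic) and 5 from mice given 30% dextrose water (D30, hyperglycemic), in both cases for 14 days. All tumors grew from 1 murine pancreatic cancer line, KPC K8484, injected into the pancreas at 10 weeks of age. The line expresses luciferase and carries a mutant Trp53 allele (R172H/+) and Cre under the Pdx1 promoter, which is active in the pancreatic lineage. Both groups thus share the same engineered alleles, and the host stroma and pancreas of the mouse remain in each tumor sample. The sample titles call the tumors PDX, while their source is given as KPC K8484 cells. The table names the tumors N1, N2, N4, N5 and N6 (CTRL) and T1, T2, T4, T5 and T7 (D30), and these names are used below.

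EGF family receptors are tyrosine kinases of the plasma membrane that act as pairs. Erbb2 binds no known ligand and serves as a partner of the others, and Erbb3 has little kinase activity of its own and passes the signal on through its partner to PI3 kinase. The ligands are made as membrane-bound precursors that proteases of the ADAM family release. Areg and Epgn bind the EGF receptor, Ereg, Btc and Hbegf bind the EGF receptor and Erbb4, Tgfa binds the EGF receptor, and Nrg1 binds Erbb3 and Erbb4. In the pancreas, Egfr signaling is known for its part in the conversion of acinar cells to ductal cells that precedes ductal cancer.

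The 4 ligand genes Epgn, Ereg, Areg and Btc lie side by side on mouse chromosome 5 within 375.5 kb, from the start of Epgn to the end of Btc, with 2 noncoding genes between them (Gm19610 and Gm19619). Promoters are printed below for a pair from this cluster, Areg and Epgn, which differed widely in level, and for Erbb2 and Tgfa, whose levels followed each other most closely over all 10 tumors. The sequences are those of RefSeq on GRCm38.p6, 250 bases before to 50 bases after the start site, on the plus strand in all 4 genes, and 6 of the 10 members had an entry. Capitals mark matches, on either strand, to the TATA box (TATAAA), the cyclic AMP response element (TGACGTCA) or the GC box (GGGCGG, or CCGCCC on the other strand). The AP-1 motif (TGANTCA) and the E-box (CACGTG) were searched too and gave no match in these windows.
Areg promoter, chr5:91139349-91139648: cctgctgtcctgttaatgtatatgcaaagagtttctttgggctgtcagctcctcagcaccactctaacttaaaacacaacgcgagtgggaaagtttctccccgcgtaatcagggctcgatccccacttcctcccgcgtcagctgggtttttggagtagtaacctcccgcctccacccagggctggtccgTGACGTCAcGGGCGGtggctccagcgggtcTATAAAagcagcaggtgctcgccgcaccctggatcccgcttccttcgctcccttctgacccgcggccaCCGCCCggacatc
Epgn promoter, chr5:91027267-91027566: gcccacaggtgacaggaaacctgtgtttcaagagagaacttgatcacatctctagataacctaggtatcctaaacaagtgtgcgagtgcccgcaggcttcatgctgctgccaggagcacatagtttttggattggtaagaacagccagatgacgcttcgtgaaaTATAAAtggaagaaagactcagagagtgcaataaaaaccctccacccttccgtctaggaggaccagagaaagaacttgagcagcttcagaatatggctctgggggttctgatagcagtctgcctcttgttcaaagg
Erbb2 promoter, chr11:98412234-98412533: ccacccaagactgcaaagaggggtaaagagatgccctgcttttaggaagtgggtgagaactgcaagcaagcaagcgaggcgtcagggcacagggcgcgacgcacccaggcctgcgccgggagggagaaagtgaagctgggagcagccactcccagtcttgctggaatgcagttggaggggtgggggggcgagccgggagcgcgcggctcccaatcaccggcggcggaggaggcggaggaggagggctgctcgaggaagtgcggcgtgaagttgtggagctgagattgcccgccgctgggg
Tgfa promoter, chr6:86194972-86195271: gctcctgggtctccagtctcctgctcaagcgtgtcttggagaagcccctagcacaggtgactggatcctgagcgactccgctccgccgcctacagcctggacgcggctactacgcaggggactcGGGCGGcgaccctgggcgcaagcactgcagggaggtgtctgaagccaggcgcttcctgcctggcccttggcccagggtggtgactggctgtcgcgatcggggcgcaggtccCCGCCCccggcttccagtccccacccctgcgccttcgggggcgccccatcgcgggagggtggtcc
Areg held a cyclic AMP response element that began 61 bases before the start site, next to a GC box and upstream of a TATA box that began 31 bases before it. Of 32851 mouse promoter windows of this length, 1.79% held that response element, 13.62% the TATA box and 35.66% the GC box. The AP-1 motif was in 7.808% of them and the E-box in 7.15%. Epgn held a TATA box, Tgfa 2 GC boxes, and the Erbb2 window matched none of the motifs searched. A match is a description of the letters and no evidence of binding.

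Reads behind the values ranged from 29915331 to 42122304 per CTRL tumor and from 29192261 to 37126175 per D30 tumor. T5 had the fewest genes detected (20482, against 23446 in T7 to 25912 in N2 for the other 9). Tumors N1 and T4 stood apart from the rest in base composition. The GC deviation of a tumor is the median log2 deviation of the 20% of genes highest in GC minus that of the 20% lowest, and it was -0.71 in N1, -1.15 in T4 and between 0.02 and 0.49 in the other 8. Of these 8, the CTRL tumors lay between 0.022 and 0.197 and the D30 tumors between 0.199 and 0.492, without overlap. T4 was also the only tumor with reads of 4 Y-linked genes (841 reads, against 0 in each of the other 9, which allows up to 3), in a design stated to use as many male as female mice. Cell type markers moved with the groups. The summed level of 10 epithelial markers was 210483 to 336350 in CTRL and 343364 to 476501 in D30, without overlap. Krt7, Krt8, Krt18, Krt19, Cdh1, Cldn4 and Ocln were higher in D30, none past an adjusted p of 0.05 in limma. Cldn7 (limma adjusted p = 0.04998) and Esrp1 (0.00656) were called as lower, at low counts. Epcam was also lower in D30, at a mean of 85.1 against 16.1 (log2 fold change -3.17, limma adjusted p = 0.0990). Without T4 it was called as lower, and Krt7 and Krt18 were called as higher. The markers that fell have little weight in the sum: the CTRL mean was 85.1 for Epcam, 24.2 for Cldn7 and 9.45 for Esrp1, against 18090 for Cdh1 and 21379 for Krt7. Krt8 (CTRL mean 85913), Krt19 (63037) and Krt18 (56807) dominate the sum, and all of them were higher in D30. All 10 fibroblast markers (summed level 80407 to 142607 against 32313 to 108203), 7 of 8 endothelial and 7 of 8 macrophage markers were lower in D30, as were all 10 acinar (43.1 to 69964 against 19.5 to 6611) and all 8 islet markers (17.7 to 1500 against 0 to 83.6). All 8 T cell markers were lower too (326 to 680 against 240 to 345), as were 7 of 8 adipocyte, 6 of 8 B cell and 5 of 8 mast cell markers. Of 8 neutrophil markers, 7 were higher in D30, as were 6 of 8 tested markers of intestinal epithelium, whose summed level did not overlap between groups (48008 to 86846 against 106054 to 264524), and 6 of 10 of squamous or basal epithelium. Of 6 mesothelial markers, 3 were higher and 3 lower. No marker of these lists was at 0 in every tumor. The part of these shifts in the results on the EGF family was not tested, and in bulk tumors fewer cells of a type and less RNA per cell cannot be told apart.

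D30 tumors were compared with CTRL tumors to ask whether the RNA of the family differed between mice on dextrose and on regular water. Of the 10 members, 8 were higher and 2 (Tgfa and Nrg1) lower on average in D30, with a median log2 fold change of 0.39. Over all 24560 genes tested, 45.3% were higher and the median was -0.06. No member passed an adjusted p of 0.05 in limma's moderated test with Benjamini-Hochberg adjustment over all genes, where 2.76% of genes did. At an unadjusted p under 0.05 there were 2 members, Erbb3 and Areg, and 17.3% of all genes. In all 10 members the groups overlapped, whereas 6.19% of genes had groups that did not. In the members the 5 D30 tumors were the more variable, with a coefficient of variation larger in D30 than in CTRL for each of the 10 (between 35.1% and 95.4% in D30 and between 15.5% and 44.4% in CTRL). For Erbb3 the values were close, at 34.3% in CTRL and 35.8% in D30. The share of all genes with a larger coefficient in D30 was not determined, so this need not be particular to the family. The p values set the difference of the group means against the spread between tumors within the groups. The difference in spread itself was not tested.

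**Figure D1:**
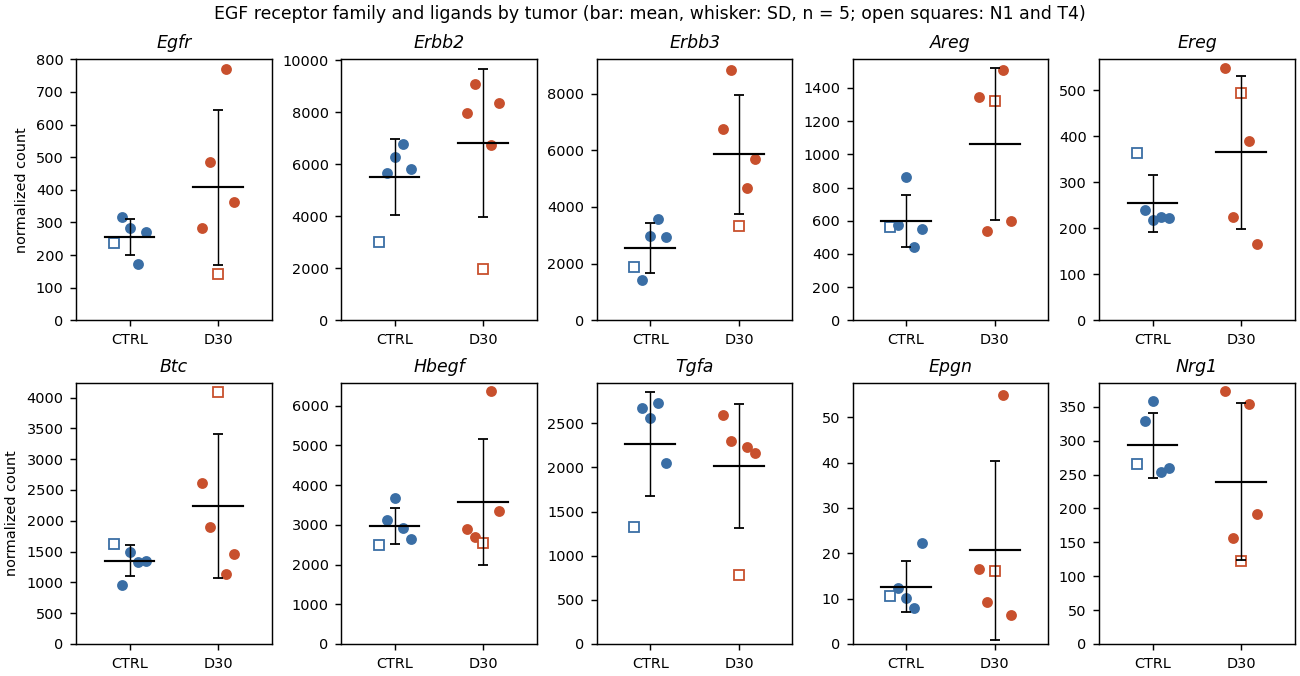
Normalized count of each of the 10 members (vertical axes from 0, each panel on its own scale) in the 5 CTRL (blue) and 5 D30 (orange) tumors, with mean and SD and with N1 and T4 as open squares. Erbb3 is the member whose groups overlap least: the D30 tumor T4 (3318) lies below the CTRL tumor N5 (3564), and the other D30 tumors lie above every CTRL tumor.

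Levels between genes were compared only as normalized count per kb of exon. The length covers the exons of all annotated transcripts of a gene together. Which transcripts were expressed was not tested, so the order between genes depends on this choice of length. In CTRL tumors Erbb2 had the highest mean level per kb (1058), followed by Hbegf (614), Areg (493), Erbb3 (425), Tgfa (349) and Btc (299.5), then Ereg (61.5), Nrg1 (28.4), Egfr (22.6) and Epgn (6.98). In D30 tumors the order began with Erbb2 (1309), Erbb3 (973), Areg (874), Hbegf (738), Btc (495) and Tgfa (310.5), and ended with Ereg (88.3), Egfr (36.0), Nrg1 (23.1) and Epgn (11.4). Egfr was thus the lowest of the 3 receptors in both groups. Neighbours in the order mostly overlapped: in CTRL only Btc over Ereg, Ereg over Nrg1 and Egfr over Epgn were separate over all 5 tumors, and in D30 none of the 9 neighbouring pairs was. The rank of Erbb3 among the members changed from the fourth in CTRL to the second in D30, in places where neighbours overlapped in both groups.

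**Figure D2:**
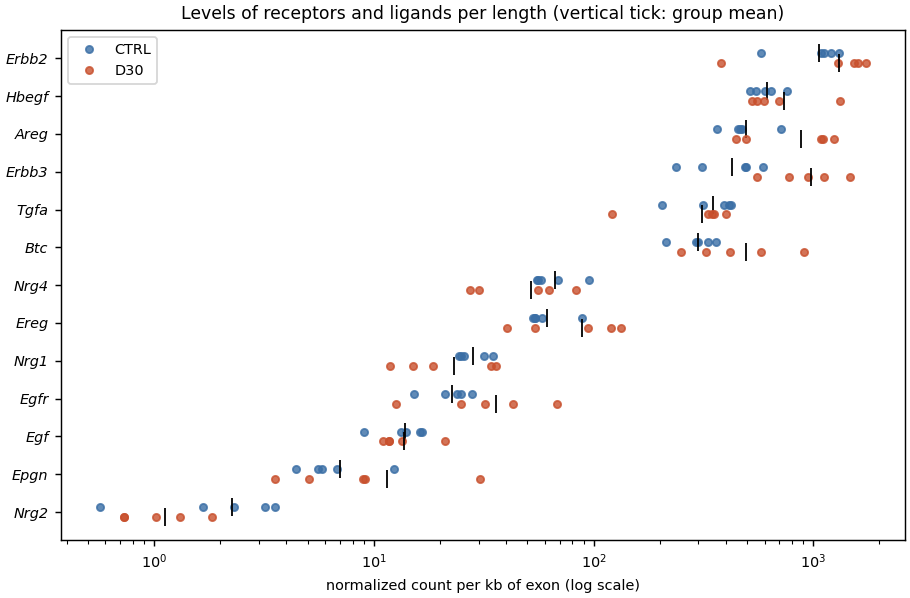
Normalized count per kb of exon (log axis) of 13 receptor and ligand genes, one point per tumor for CTRL (blue, upper row) and D30 (orange, lower row), with a tick at the group mean. Erbb2 has the highest mean in both groups (1058 and 1309), Egfr is far below it (22.6 and 36.0), and the points of most neighbouring genes overlap.

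Erbb3 (ENSMUSG00000018166.9, chromosome 10, 128567523 to 128589652, minus strand, GRCm38) was the member with the smallest p. Its normalized count was 1869 in N1, 1433 in N2, 2976 in N4, 3564 in N5 and 2933 in N6, against 6739.7 in T1, 8848 in T2, 3318 in T4, 4670.4 in T5 and 5695 in T7. Of the D30 tumors, 4 of 5 were above every CTRL tumor, and T4 lay among the CTRL tumors. The CTRL mean was 2555 ± 876 and the D30 mean 5854 ± 2098 (SD, n = 5 each), a ratio of means of 2.29. The log2 fold change was 1.2 (SE 0.30, 95% interval 0.55 to 1.85), with an adjusted p of 0.0538 in limma and an exact two-sided permutation p of 0.0159. The call turned on the setting. Erbb3 passed the threshold without T4 (log2 fold change 1.38, limma adjusted p = 0.00871), with upper quartile scaling (limma, 0.0337), in edgeR (0.0458) and in DESeq2 (0.00665), and also in the fits with N1 and T4 left out together (limma, 0.0221) or with the GC deviation of the tumor as a covariate (limma, 0.0149), both chosen after the values were seen. In these fits the share of all genes called as higher in D30 was 3.32%, 1.57%, 2.67%, 5.04%, 3.59% and 5.68%, in the same order. It did not pass in the other 15 of 21 alternatives, in which the log2 fold change stayed positive, and over all 21 the adjusted p ranged from 0.00665 to 0.153. The summed epithelial markers above were also higher in D30, though T2, the highest tumor for Erbb3, had the lowest sum of the D30 tumors (343364). Relative to that sum, Erbb3 was at 10.5 ± 3.99 per 1000 marker counts in CTRL and 14.9 ± 6.95 in D30 (SD, n = 5, exact permutation p = 0.254).

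Erbb2 (chromosome 11, 98412470 to 98437716, plus strand) did not differ beyond the spread between tumors. Its normalized count was 3026 in N1, 5669.6 in N2, 6267 in N4, 6785 in N5 and 5805 in N6, and 7986 in T1, 9071 in T2, 1975 in T4, 6727 in T5 and 8342 in T7. N1 and T4 were by far the lowest of their groups, and 3 of the other 4 D30 tumors were above every CTRL tumor. The CTRL mean was 5510.2 ± 1456 and the D30 mean 6820.3 ± 2838 (SD, n = 5 each). The log2 fold change was 0.18 (95% interval -0.65 to 1.02, limma adjusted p = 0.852), and it was -0.04 when tumors were scaled by library size alone. It was -0.02 without N1, 0.59 without T4 (limma adjusted p = 0.1265) and 0.38 without N1 and T4 together (limma adjusted p = 0.0938). The last of these fits was chosen after the values were seen.

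Egfr (chromosome 11, 16752203 to 16918158, plus strand) was at 238, 318, 283, 171.7 and 270.4 normalized counts in N1 to N6 and at 282, 486, 142, 769 and 362 in T1 to T7, in the order given above. T5 was the highest and T4 the lowest of all 10 tumors. The CTRL mean was 256 ± 55.3 and the D30 mean 408 ± 237 (SD, n = 5 each), with a log2 fold change of 0.49 (95% interval -0.34 to 1.32, limma adjusted p = 0.556). Erbb4, the remaining receptor of the family and outside the rule, was at 0 in 8 tumors, with 4 reads in T4 and 2 in T7, and was too low to test. Reads of Erbb2, Egfr, Ereg, Tgfa and Nrg1 could include those of a gene annotated over them on the other strand (Mien1, Egfros, Gm19610, Gm43917 and Gm22140), as the libraries were strand-specific but the counting setting was not stated, and Mir6917 lies within Erbb3.

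The receptors were also compared within each tumor, which does not depend on how tumors were scaled. This comparison was added after the values were seen. The ratio of Erbb3 to Erbb2, each per kb, was 0.535 in N1, 0.219 in N2, 0.411 in N4, 0.455 in N5 and 0.438 in N6, and 0.731 in T1, 0.845 in T2, 1.45 in T4, 0.601 in T5 and 0.591 in T7. The groups did not overlap. The mean ratio was 0.412 ± 0.117 for CTRL and 0.845 ± 0.357 for D30 (SD, n = 5 each), with an exact two-sided permutation p of 0.00794, the smallest that 5 against 5 allows (0.0238 after Benjamini-Hochberg adjustment over the 3 receptor pairs). N1 and T4, the tumors with the negative GC deviation, had the highest ratio of their groups, and Erbb2 RNA is richer in GC (57.3%) than Erbb3 RNA (51.2%). Without these tumors the groups were still apart, with at most 0.455 in CTRL against 0.591 to 0.845 in D30 (exact permutation p = 0.0286, the smallest that 4 against 4 allows). The GC deviation of the tumors left was also apart by group, at 0.022 to 0.197 in CTRL and 0.199 to 0.492 in D30. Its part in the ratio was not tested. The ratios of Erbb3 to Egfr (20.5 ± 11.4 in CTRL and 32.9 ± 13.6 in D30, SD, n = 5, exact permutation p = 0.198, adjusted 0.298) and of Erbb2 to Egfr (49.4 ± 21.9 and 40.3 ± 16.6, SD, n = 5, exact permutation p = 0.476, adjusted 0.476) overlapped between groups.

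**Figure D3:**
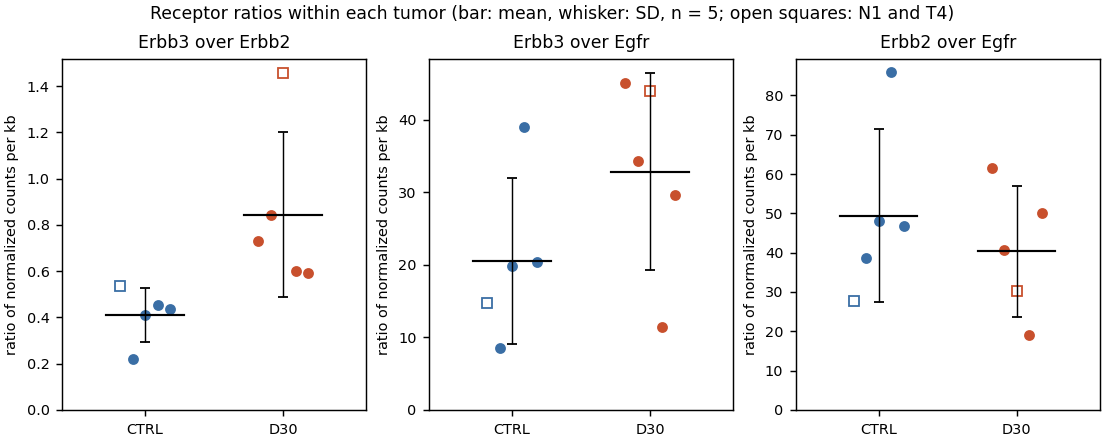
Ratio of normalized counts per kb for the 3 receptor pairs (vertical axes from 0) within each of the 5 CTRL (blue) and 5 D30 (orange) tumors, with mean and SD and with N1 and T4 as open squares. Erbb3 over Erbb2 lies between 0.219 and 0.535 in CTRL and between 0.591 and 1.45 in D30, while the other pairs overlap.

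Among the ligands of the chromosome 5 cluster, Areg (amphiregulin, 91139599 to 91148432, plus strand) had the smallest p. It was at 565, 572.5, 862, 443 and 552 normalized counts in the CTRL tumors and at 1343 in T1, 538 in T2, 1322 in T4, 1511 in T5 and 598 in T7. The D30 tumors fell into 3 above every CTRL tumor and 2 within the CTRL range. The mean was 599 ± 156 (SD, n = 5) against 1062 ± 458 (SD, n = 5), and the log2 fold change of 0.73 (95% interval 0.05 to 1.42) had a limma adjusted p of 0.257 and an exact permutation p of 0.0873. Ereg (epiregulin, 91074622 to 91093646, plus strand) was high in the same 3 D30 tumors. Its normalized count was 364 in N1, 239.996 in N2, 218 in N4, 224 in N5 and 222 in N6, and 548 in T1, 225 in T2, 494 in T4, 389 in T5 and 166 in T7, with a log2 fold change of 0.41 (95% interval -0.32 to 1.13, limma adjusted p = 0.577).

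Btc (betacellulin, 91357261 to 91402994, minus strand) had a different order of tumors. It was at 1630 in N1, 964 in N2, 1498 in N4, 1328 in N5 and 1348 in N6, and at 2609.5 in T1, 1897 in T2, 4085 in T4, 1132 in T5 and 1468 in T7. T1, T2 and T4 were above every CTRL tumor, T4 by the most, while T5, the highest tumor for Areg, lay near the bottom. The log2 fold change was 0.60 (95% interval -0.06 to 1.26, limma adjusted p = 0.342). With the GC deviation of the tumor as a covariate it was 0.68 (limma adjusted p = 0.0353), so that 2 members (Erbb3 and Btc) were called as higher in that fit, beside 5.68% of all genes. Epgn (epigen, 91027464 to 91035215, plus strand) was the lowest member, between 7.97 and 22.2 normalized counts in CTRL and between 6.39 and 54.9 in D30, with its highest value in T5 (log2 fold change 0.37, 95% interval -0.83 to 1.57, limma adjusted p = 0.785).

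Outside the cluster lie Hbegf, Tgfa and Nrg1, none of which passed the test. Hbegf (heparin-binding EGF-like growth factor, chromosome 18, 36504927 to 36515805, minus strand) was at 2493, 3113, 3667, 2919 and 2646 in the CTRL tumors and at 2885, 2687, 2551.5, 6362 and 3359 in the D30 tumors. T5 was far above the other 9 tumors, which lay between 2493 and 3667. The log2 fold change was 0.19 (95% interval -0.34 to 0.72, limma adjusted p = 0.744), and -0.04 with scaling by library size alone. Tgfa (transforming growth factor alpha, chromosome 6, 86195223 to 86275719, plus strand) was at 1325.5 in N1, 2672 in N2, 2557 in N4, 2728 in N5 and 2048 in N6, and at 2591 in T1, 2304 in T2, 785 in T4, 2237 in T5 and 2159 in T7. T4 and N1 were the lowest, and the other 8 tumors of both groups lay between 2048 and 2728 (log2 fold change -0.23, 95% interval -0.93 to 0.46, limma adjusted p = 0.763). Egf itself, outside the rule, was at 156 ± 34.2 in CTRL and 155 ± 46.7 in D30 (SD, n = 5, log2 fold change -0.02, limma adjusted p = 0.983).

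Nrg1 (neuregulin 1, chromosome 8, 31814551 to 32884029, minus strand) was at 266, 329.6, 359, 253 and 259 in the CTRL tumors and at 373 in T1, 156 in T2, 123 in T4, 354 in T5 and 192 in T7. The D30 tumors split into T1 and T5, near the upper end of CTRL, and T2, T4 and T7, below every CTRL tumor. The log2 fold change was -0.42 (95% interval -1.11 to 0.28, limma adjusted p = 0.547). The other neuregulins were outside the rule. Nrg4, a ligand of Erbb4, was at 405 ± 104 and 314 ± 141 (SD, n = 5, limma adjusted p = 0.504), Nrg2 at 7.09 ± 3.76 and 3.53 ± 1.47 (SD, n = 5, limma adjusted p = 0.512), and Nrg3 had 1 read in N5 and none elsewhere and was too low to test.

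As shares of the summed ligand level per kb, Hbegf made up 33.1% ± 1.63 (SD, n = 5) in CTRL, within a narrow range of 31.0% to 35.1%, and 29.2% ± 9.18 in D30, from 19.0% to 39.7%. Areg made up 26.4% ± 3.78 in CTRL and 33.0% ± 7.48 in D30, Tgfa 18.8% ± 4.56 and 13.1% ± 5.93, while Btc ranged from 11.6% to 21.7% and from 7.56% to 32.5%. The small share of Nrg1 did not overlap between groups, at 1.38% to 1.73% in CTRL and 0.426% to 1.26% in D30. It was singled out after the values were seen and has no test, and a share moves with the other ligands, whose sum was 1852 ± 251 per kb in CTRL and 2541 ± 640 in D30 (SD, n = 5).

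**Figure D4:**
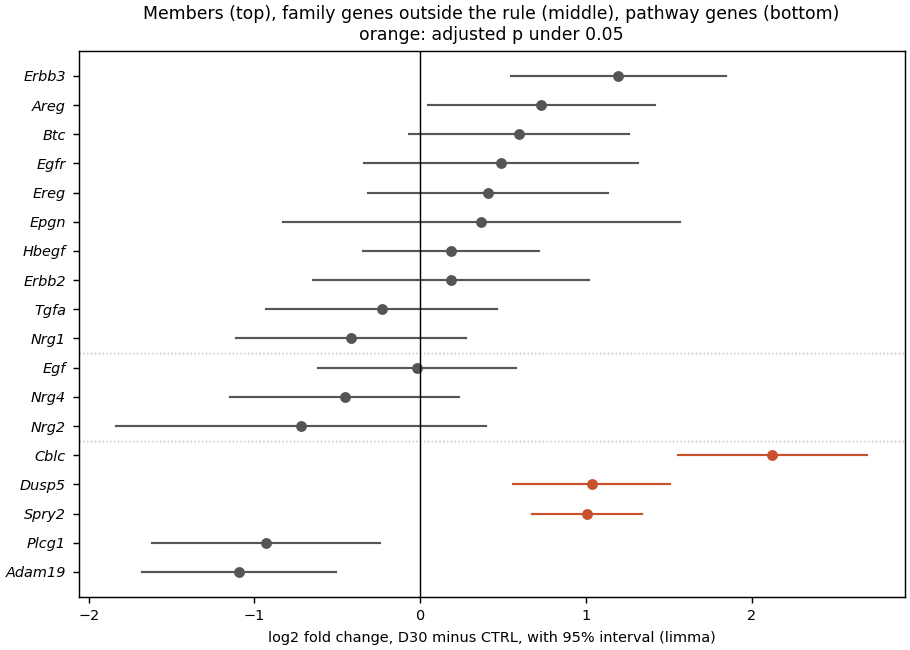
Log2 fold change (D30 minus CTRL) with its 95% interval from limma for the 10 members (top), Egf, Nrg4 and Nrg2 (middle) and 5 genes of the pathway (bottom), with genes of adjusted p under 0.05 in orange. Of the members, only Erbb3 and Areg have an interval that leaves out 0, and Cblc, Dusp5 and Spry2 are the genes shown that passed.

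The extremes came from a few tumors. D30 tumors held the highest value of 9 of the 10 members (Tgfa was highest in N5), but they were not the same tumors. T5 was the highest for Egfr, Areg, Hbegf and Epgn, T2 for Erbb2 and Erbb3, T1 for Ereg and Nrg1, and T4 for Btc, while T4 was also the lowest of all tumors for Egfr, Erbb2, Tgfa and Nrg1. Without T4, the log2 fold change was 0.81 for Egfr, 0.59 for Erbb2, 0.62 for Areg, 0.34 for Btc, 0.08 for Tgfa and -0.21 for Nrg1, with limma adjusted p values from 0.111 (Egfr) to 0.859 (Tgfa). Without T5, it was 0.21 for Egfr, 0.57 for Areg, 0.81 for Btc, -0.04 for Hbegf, -0.07 for Epgn and -0.59 for Nrg1. For Ereg it was 0.26 without T4, 0.23 without T1 and 0.66 without T7. None of these values was called. After centring on the group means, the levels of Erbb2 and Tgfa had a Pearson r of 0.97 over the 10 tumors (0.88 without T4), Areg and Ereg 0.73 (0.69), Erbb2 and Erbb3 0.71 (0.57), and Egfr and Btc -0.86 (-0.69). Areg and Nrg1 had an r of 0.52 with T4 and of 0.95 without it, which made them the closest pair of the other 9 tumors. These are descriptions, with no test. Genes of the same library share its depth and base composition, and both differed between tumors.

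In N1 and T4, Erbb2, Tgfa and Hbegf lay at one end of their groups and Btc and Ereg at or near the other. The pattern was noticed after the values were seen. Erbb2, whose transcript GC of 57.3% is at the 88.5th percentile of genes, was lowest there within each group, as was Tgfa (50.9%, 57.3rd percentile). The same held for Hbegf (51.5%, 60.4th percentile). Erbb3 (51.2%, 59.0th percentile) was lowest in T4 within D30 and second lowest in N1 within CTRL. Btc (37.7%, 2.28th percentile) was highest in these tumors within each group, and Ereg (39.2%, 4.54th percentile) was highest in N1 and second highest in T4. Egfr (44.4%) and Nrg1 (42.7%), which are also below the middle of the GC range, were lowest in T4. The part of base composition in these levels was not tested beyond the fit with the GC deviation as a covariate, in which the log2 fold change of each of the 10 members kept its sign.

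**Figure D5:**
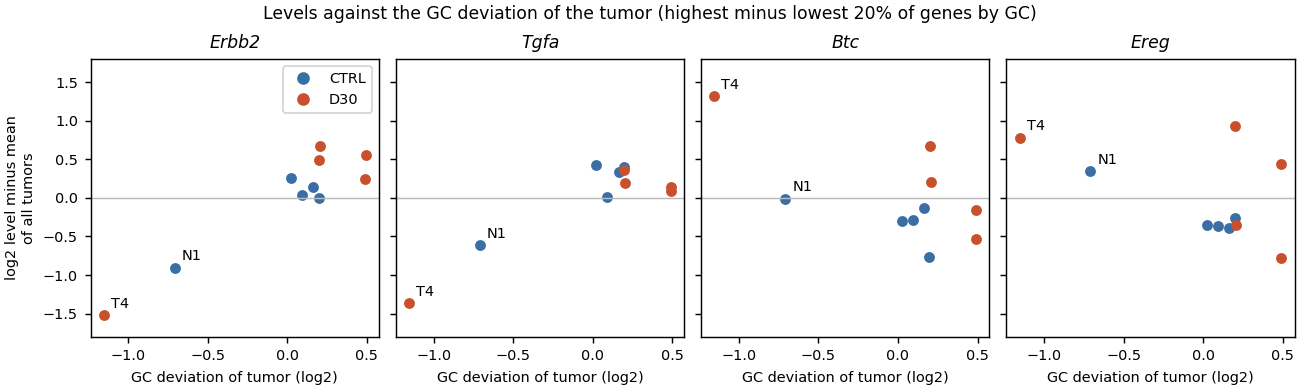
Log2 level of Erbb2, Tgfa, Btc and Ereg minus its mean over the 10 tumors (vertical axis) against the GC deviation of the tumor (horizontal axis, log2, highest minus lowest 20% of genes by GC), one point per tumor. T4 (-1.15) and N1 (-0.71) lie apart on the horizontal axis, low for Erbb2 and Tgfa and high for Ereg, with T4 also high for Btc.

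Other genes of the pathway were described by 4 gene lists. Of 23 genes that dampen or degrade the receptors, 9 were higher and 14 lower in D30, with a median log2 fold change of -0.07, and 3 (Cblc, Spry2 and Dusp5) rose past the threshold, which 2.76% of all genes passed in either direction. Cblc, a ubiquitin ligase of the Cbl family that targets activated receptors, was at 331, 189, 390.1, 337 and 321 normalized counts in CTRL and 1603, 1891, 880.2, 1046 and 1522 in D30. Every D30 tumor was above every CTRL tumor. Cblc rose 4.42-fold as a ratio of means (log2 fold change 2.13, SE 0.26, limma adjusted p = 0.00162), and it was called in all 21 alternatives. Relative to the summed epithelial markers it was at 0.883 to 1.602 per 1000 marker counts in CTRL and 2.11 to 5.51 in D30, also without overlap (exact permutation p = 0.00794, n = 5 per group).

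Spry2 (Sprouty 2), an inhibitor of ERK signaling that ERK itself induces, had the narrowest spread of the genes given here tumor by tumor. It was at 750.1, 747, 836, 745 and 727 in CTRL and 1429, 1663, 1587, 1549.9 and 1419.9 in D30, and the groups were far apart. Its log2 fold change was 1.01 (SE 0.15, limma adjusted p = 0.00499), and it was called in all 21 alternatives. Dusp5, a nuclear phosphatase of ERK, rose from 1351 ± 370 (SD, n = 5) to 2765 ± 731 (SD, n = 5), with a log2 fold change of 1.04 (SE 0.22, limma adjusted p = 0.0243). It was called in 16 of 21 alternatives, and it missed the threshold when N1, N2, N5 or N6 was left out or when tumors were scaled by library size alone, with an adjusted p of at most 0.0815 in limma. The 20 other genes of this list, among them Errfi1, Spry4, Dusp6 and Cbl, did not pass.

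Of 15 genes that report ERK output, 9 were higher and 6 lower (median log2 fold change 0.17), and the 2 that passed were again Dusp5 and Spry2, which are in both lists. Of 34 adaptors and downstream kinases, 17 were higher and 17 lower (median 0.01) and none passed in limma, with 4 at an unadjusted p under 0.05, where 17.3% of all genes lay. The one with the smallest p was Plcg1 (phospholipase C gamma 1), at 6073 ± 1834 in CTRL and 3293 ± 1164 in D30 (SD, n = 5, log2 fold change -0.93, limma adjusted p = 0.152). It was called in 2 of 21 alternatives, with the GC deviation as a covariate (limma adjusted p = 0.00218) and without N1 and T4 (0.0209). Of 11 genes of ligand shedding, 5 were higher and 6 lower (median -0.05) and none passed in limma, with 3 at an unadjusted p under 0.05, beside the same 17.3% of all genes. Adam17, the main protease for several EGF receptor ligands, was at 1728 and 1744. Adam19, which can cleave neuregulins, was at 717, 1049.6, 783, 891 and 803 in CTRL and 549, 407, 197, 516 and 419.7 in D30. Its groups did not overlap, but its log2 fold change of -1.09 (SE 0.27) had a limma adjusted p of 0.0510, and it was called in 11 of 21 alternatives. Without T4, 9 genes of these lists passed instead of 3 (1573 genes overall instead of 678), the additions including Adam19, Egr1, Mapk3, Rasa1 and Spred1.

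By the measure of likeness set for the receptor and the ligand with the smallest p, the Pearson r of log2 levels centred on the group means over the 10 tumors, 17360 genes were compared. The genes most like Erbb3 were ENSMUSG00000118672, which had no symbol in the annotation used (r = 0.96), Tmtc2 (0.95) and 2010300C02Rik (0.94). Those most like Areg were Atp6v1d (0.94), Rrm2 (0.92) and Akap6 (0.92).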

How the data were processed

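Strand-specific libraries of tumor RNA were sequenced as 150-base read pairs and aligned with STAR (2.7.0e). The authors deposited, for each gene in each tumor, a normalized signal of the kind DESeq2 gives. Every value was a whole multiple of 1 step per tumor, so whole reads were recovered (100.0% of values within 0.01 read), and the size factors are already in the deposited values. Columns marked N were taken as CTRL and columns marked T as D30. They are numbered otherwise than the replicates of the labels, so no column was tied to one mouse. The submitters' processing notes name GRCm39, the methods hg38, and gene names and positions here are those of GENCODE M21 (GRCm38), which matched 94.1% of 55359 identifiers.

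The design had assumed counts. As the values are normalized, limma (3.58.1, R 4.3.3) with a mean-variance trend was run on log2(normalized count + 1) over the 24560 genes with a mean of at least 1, so fold changes of low genes are understated. A Benjamini-Hochberg adjusted p under 0.05 over all genes was a call. It called 678 genes (344 higher and 334 lower in D30). On the recovered reads edgeR (4.0.16, quasi-likelihood) called 707 (457 and 250) and DESeq2 (1.42.0), the tool the methods name, 1858 (1098 and 760). Single values were also compared by exact two-sided permutation. In a test on simulated counts over 24332 genes, limma recovered 10% of genes changed by 1 log2 unit and 70% of those changed by 2, with 3.61% of its 83 calls false. With 83 calls against 678 in the data, the unadjusted p needed for a call was smaller in the simulation. These shares therefore need not hold for the data. The members and lists were chosen with earlier results of these data known. Named were the 10 members, 5 family genes outside the rule, the genes called in each pathway list or else the one with the smallest p, and the 3 genes most like the receptor and the ligand of smallest p. Genes given only as marker or list examples, the ratios and the Nrg1 share were chosen after their values were seen. An allele of the injected line and the values of a gene in the pathway lists are not reported here.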

Additional observations from a re-analysis of the deposited data

Results flagged for a closer look

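Among the 10 members in both groups, 4 of 20 sets of 5 tumors had a lowest or highest tumor set far from the rest on log2 levels. The measure was its gap to the nearest tumor as a share of the whole range of the group (Dixon's test). The counts given above are not on the log2 scale, and gaps taken on the counts would differ. Chance flags about 1 in 20 such groups. In CTRL, N1 was far below the other tumors for Erbb2 (gap 0.778 of the range) and far above them for Ereg (0.815). In D30, T4 was far below the others for Erbb2 (0.804) and for Tgfa (0.847). N1 and T4 are the tumors with a GC deviation of -0.71 and -1.15, and T4 is the tumor with reads of Y-linked genes. The part of either in these values was not tested.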

How the results depend on the processing

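No paired analysis was possible because the columns are numbered otherwise than the labelled replicates. The count of genes called was 678 (344 higher and 334 lower). It was 1858 with DESeq2, 2840 (1396 higher and 1444 lower) with the GC deviation as a covariate, 1584 without N1 and T4 together, and 279 (without N2) to 1573 (without T4) when 1 tumor was left out. It was 340 without N5, 332 without N6 and 433 without T7. Scaling by library size alone shifted the median of all genes to -0.27 and gave 240 higher and 625 lower calls. The members called were 0, and 1 (Erbb3) with upper quartile scaling, edgeR, DESeq2 or without N1 and T4, 2 with the GC covariate, and 0 to 1 when 1 tumor was left out. The pathway genes called were 3, and 5 with scaling by library size, 5 with DESeq2, 14 with the GC covariate, 11 without N1 and T4, and 2 to 9 when 1 tumor was left out. The cause of these changes was not tested.

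Of 376 values of 18 single genes over 21 alternatives, 338 kept direction and call, 20 passed the threshold anew, 5 lost it and 13 changed sign. The sign changed for Erbb2 (-0.039 with library size, -0.018 to 0.59 when 1 tumor was left out, negative without N1), Hbegf (-0.035 with library size, -0.042 to 0.29), Tgfa (-0.41 to 0.080, positive without T4), Epgn (-0.071 to 0.66, negative without T5) and Egf (0.027 with upper quartile scaling, 0.0086 in edgeR, -0.18 to 0.056). None of these was called. The fits with the GC covariate and without N1 and T4 were chosen after seeing the data. In the simulated counts the test called 10% of genes changed by 1 log2 unit, in a setting with fewer calls (83) than the data (678). In the data Spry2 (log2 fold change 1.01) and Dusp5 (1.04) were called. The share of such differences missed in the data was not estimated.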
